A study of Mus musculus with 2 samples.

Results

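Ephrins, Slits, netrins and their receptors are guidance genes: ligands and receptors by which cells attract, repel or sort from one another. Their transcripts were examined in cultured perivascular cells (PVCs), the pericyte-like cells around blood vessels, from the mouse aorta. Members were taken by gene symbol, with earlier results of these data known. They comprised 9 EphA receptors, 5 EphB receptors, 5 ephrin-A ligands, 3 ephrin-B ligands, 3 Slits, 4 Robos, 2 netrins (Ntn1 and Ntn4) and 5 netrin receptors (Dcc and the Unc5 genes), 36 of the 20211 gene symbols measured. RNA was sequenced from 1 library of wild type PVCs (WT) and 1 library of PVCs lacking Kai1 (Kai1 KO), both on a C57BL/6 background and grown in DMEM with FBS. Kai1 is the protein encoded by Cd82, a tetraspanin of the cell membrane, and the study asked how its loss changes the angiogenic programme of these cells. The methods describe adult C57BL/6 mice of either sex, whereas the number of animals behind each culture and the construction of the knockout allele are not given in the sources used here. With 1 library per genotype there are no replicates, so a difference between the libraries includes any difference between animals, cultures and preparations, and no p-value was computed.

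Eph receptors are receptor tyrosine kinases that bind ephrins on the surface of a neighbouring cell, and ligand and receptor both signal upon contact. Ephrin-A ligands are held in the membrane by a lipid (GPI) anchor, whereas ephrin-B ligands span the membrane and carry a cytoplasmic end that binds PDZ proteins. In blood vessels the pair of ephrin-B2 and EphB4 is best known for separating arteries from veins and for the attachment of mural cells. Slits are secreted ligands of the Robo receptors, and netrins are secreted laminin-related ligands of Dcc and the Unc5 receptors, of which Unc5b is the vascular one.

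Expression was given in RPKM, reads scaled to transcript length and to the number of mapped reads. This allows levels of different genes within a library to be compared. Summed over all symbols, however, RPKM was 884463 in WT and 1238190 in Kai1 KO, so ratios between the libraries depend on how they are scaled. Scaling to equal sums, which would lower each ratio of Kai1 KO to WT, was not done. Read totals were estimated from the spacing of the lowest values, which gave about 29500000 reads for WT and 26700000 for Kai1 KO. Any scaling between the libraries by the authors would be part of these totals. The targeted gene Cd82 stood at 12.8 RPKM in WT PVCs and at 2.62 RPKM in Kai1 KO PVCs. Pericyte and smooth muscle genes were present, with Acta2 (smooth muscle actin) at an RPKM of 3823 in WT and 2580 in Kai1 KO and Pdgfrb at 44.7 and 31.6, whereas the pericyte gene Rgs5 was at 0.0630 and 0.233. The smooth muscle gene Myh11 was at 2.96 in WT and 0.346 in Kai1 KO. Of the 7 genes of this list of 12 with a mean of at least 1 RPKM, 4 were more than 2-fold lower and 0 higher. Among all genes above that minimum, 7.81% were lower and 7.98% higher. All 6 cell cycle genes examined were higher in the Kai1 KO library, as were 5546 of all 10068 genes above the same minimum. Their summed RPKM was 73.5 in WT and 242 in Kai1 KO. The Y-linked genes Ddx3y and Eif2s3y were at 6.56 and 3.17 RPKM in WT and listed at 0 in Kai1 KO. Kdm5d and Uty, also Y-linked, were at 0.941 and 0.479 in WT and likewise at 0 in Kai1 KO. The WT library thus held RNA of male cells, whereas these genes gave no sign of male cells in the Kai1 KO library. The part of these differences in the results below was not tested, and genotype cannot be told apart from them.

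Of the 36 guidance genes, 17 averaged at least 1 RPKM across WT and Kai1 KO, and 14 of them reached 1 RPKM in each library. Log2 ratios of Kai1 KO to WT include 0.1 RPKM added to both values, so the difference of a low gene is understated. More than 2-fold lower in the Kai1 KO library were 2 of the 17, Ntn4 and Ephb6, whereas 7.81% of the 10068 genes above the same minimum were that much lower. More than 2-fold higher was 1 of the 17, Efna2, against 7.98% of all genes. Each of these 3 genes passed the minimum in 1 library only, so the minimum itself selected for a difference. Of the 14 genes with at least 1 in each library, 0 were past 2-fold in either direction, against 5.50% of 9434 genes lower and 7.03% higher. The median log2 ratio of the 17 genes was -0.01 and that of all genes 0.08, and without Epha1, whose reads are uncertain as described with that gene, the median of the other 16 was -0.11.

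**Figure D1:**
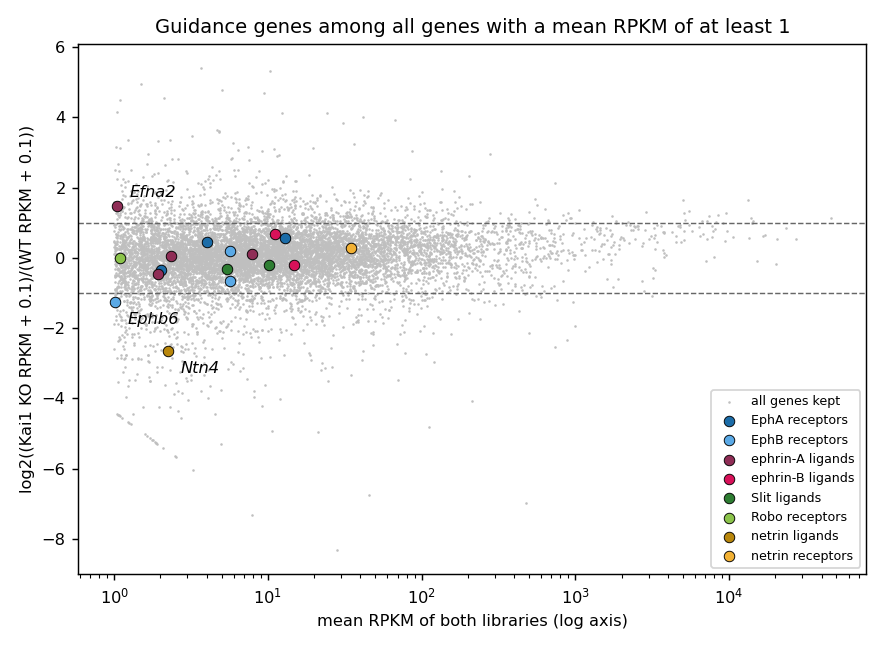
Log2 ratio of Kai1 KO to WT (0.1 added to each RPKM) against the mean RPKM of both libraries (log axis), with 10068 genes in grey and the 17 guidance genes coloured by role. Dashed lines mark 2-fold, and only Efna2 above and Ephb6 and Ntn4 below lie outside them, all at a mean RPKM below 2.5.

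Read against level, the 3 genes past 2-fold came from the 7 that averaged 1 to below 2.5 RPKM, a bin chosen after the values were seen, in which 14.5% of all genes were more than 2-fold lower and 168 of 1866 higher. Of the 10 that averaged at least 2.5 RPKM, 0 were past 2-fold, where 6.28% of all genes were lower and 7.74% higher. The precision that sequencing depth allows was described by exact 95% intervals from the estimated reads, which cover counting error only and are given for the log2 ratio without the added 0.1. These intervals lay below 0 for 8 of the 17 genes and above 0 for 6, and included 0 for 3 (Efna4, Efna5 and Robo1). Among all genes, 35.0% had an interval below 0 and 44.4% above 0, so an interval that excludes 0 was the common case and says nothing of the spread between cultures.

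**Figure D2:**
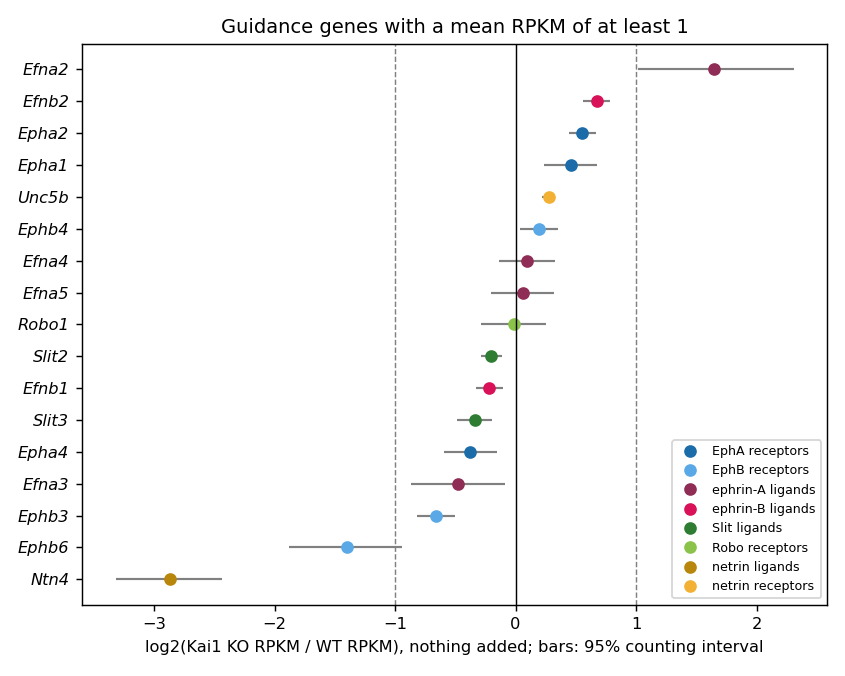
Log2 ratio of Kai1 KO to WT RPKM, with nothing added, for the 17 guidance genes above the minimum of 1, coloured by role; bars are 95% intervals for counting error, and dashed lines mark 2-fold. Ntn4 lies farthest to the left at -2.87 and Efna2 farthest to the right at 1.65, and 14 genes lie between the lines.

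Among the EphA receptors, Epha2 was the highest. Epha2, on chromosome 4 from 140857155 to 140885299 (build NCBI37/mm9, as for all positions here), encodes a receptor of ephrin-A ligands known from epithelial and tumour cells. It stood at 10.5 RPKM in WT PVCs and 15.5 RPKM in Kai1 KO PVCs, a log2 ratio of 0.55 (counting interval 0.44 to 0.67). The log2 ratio of Epha2 fell to 0.05 when the libraries were scaled to equal Gapdh. Epha4, whose product binds ephrins of both classes, had an RPKM of 2.29 in WT and 1.76 in Kai1 KO, a log2 ratio of -0.36. Epha3, on chromosome 16, stood at 1.34 in WT and 0.149 in Kai1 KO, or 11.1% of WT, from about 216 and 22 reads. With a mean RPKM of 0.744 it fell short of the minimum and was not counted above. In the WT library 4 EphA receptors thus had an RPKM of at least 1, and in the Kai1 KO library 3. As in any bulk sample, fewer cells expressing a gene and less RNA per cell cannot be told apart.

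The value of Epha1 carries a particular limit. It was listed at an RPKM of 3.40 in WT and 4.68 in Kai1 KO, a log2 ratio of 0.45 that became -0.04 under scaling to Gapdh, and 160 of its exonic bases are also exon of Zyx, a focal adhesion gene on the opposite strand. Zyx had an RPKM of 956 in WT and 1308 in Kai1 KO, and at that level its reads over the shared bases would number 4510 and 5586, against 309 and 384 reads estimated for Epha1. The Kai1 KO value was 137% of WT for both genes, and whether this reflects shared reads was not tested. The shared bases are those of GENCODE M1 exons, whereas the RPKM values were given per RefSeq gene. Whether reads were counted by strand is not given in the sources used here, so reads of Epha1 and Zyx cannot be told apart. Without Epha1, Epha2 made up 73.3% of the summed EphA RPKM in WT PVCs and 88.4% in Kai1 KO PVCs. The remaining EphA receptors were near or at 0: Epha7 had an RPKM of 0.209 in WT and 0.121 in Kai1 KO, Epha6 corresponded to about 1 read in WT and was listed at 0 in Kai1 KO, and Epha5, Epha8 and Epha10 were listed at 0 in both libraries.

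**Figure D3:**
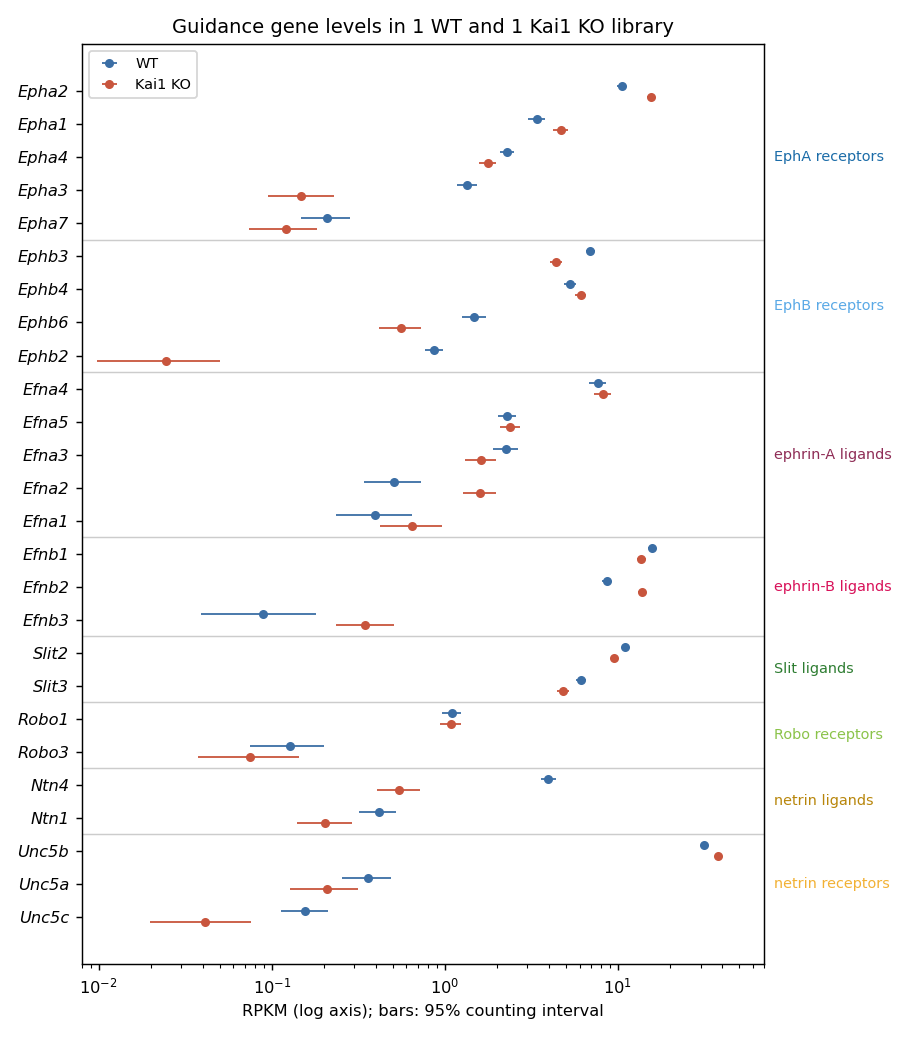
RPKM (log axis) of the 26 guidance genes with an RPKM of at least 0.1 in 1 library, grouped by role, in the WT library (blue) and the Kai1 KO library (red); bars are 95% intervals for counting error, and the other 10 genes were lower or listed at 0. Ephb2, Epha3 and Ntn4 show the widest gaps between the libraries, whereas Efna4, Efna5 and Robo1 nearly coincide.

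The EphB receptors differed in opposite directions, so that their order was not the same in the 2 libraries. Ephb3, on chromosome 16 from 21204828 to 21223378, was the highest in WT with an RPKM of 6.93 and stood at 4.39 in Kai1 KO, a log2 ratio of -0.65 (counting interval -0.82 to -0.50). Ephb4, the receptor of ephrin-B2, lies on chromosome 5 (137791337 to 137819897) and stood at 5.31 RPKM in WT and 6.09 RPKM in Kai1 KO, a log2 ratio of 0.19, which became -0.30 under scaling to Gapdh. The ratio of Ephb4 to Ephb3 within a library does not depend on how the libraries were scaled. It was 0.766 in WT (counting interval 0.691 to 0.847) and 1.39 in Kai1 KO (1.24 to 1.56), so Ephb4 was below Ephb3 in WT and above it in Kai1 KO.

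Both of the lower EphB receptors were lower still in the Kai1 KO library. Ephb6, a member without kinase activity, lies on chromosome 6 and had an RPKM of 1.47 in WT and 0.558 in Kai1 KO, or 37.9% of WT. Its log2 ratio was -1.26, and with 1 RPKM added in place of 0.1 it was -0.67, which is less than 2-fold. Ephb2, on chromosome 4 from 136203454 to 136391903, was below the minimum with an RPKM of 0.867 in WT and 0.0245 in Kai1 KO. These values rest on about 274 and 7 reads, and the Kai1 KO value was 2.83% of WT, the lowest percentage among the guidance genes above 0 in both libraries. Ephb1 was listed at 0 in both. The summed EphB RPKM was 14.6 in WT and 11.1 in Kai1 KO, and Ephb4 made up 36.4% of it in WT and 55.0% in Kai1 KO.

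**Figure D4:**
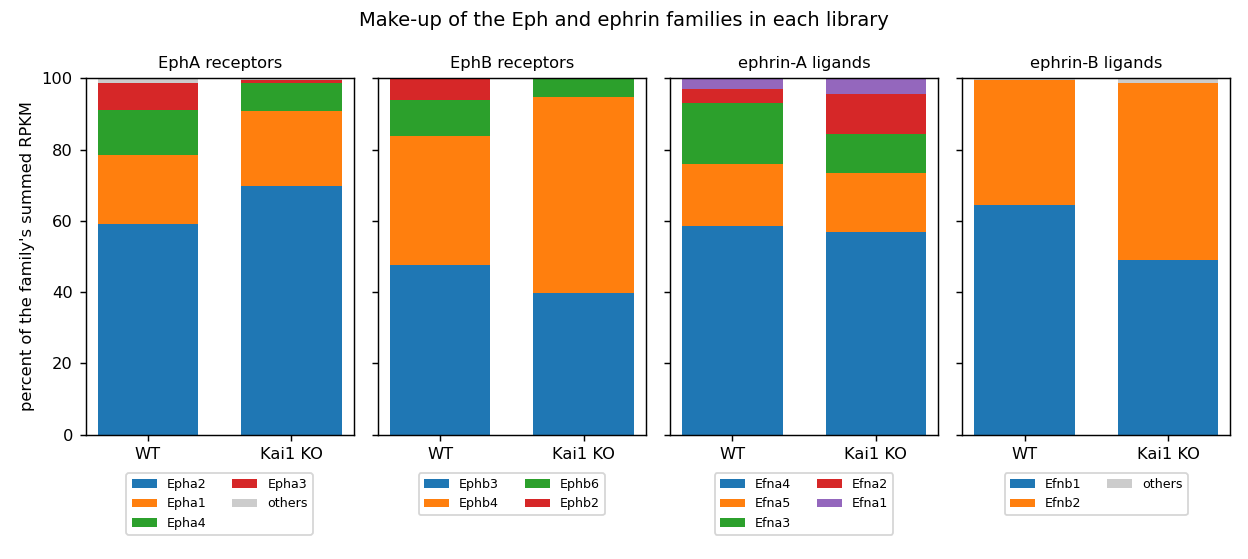
Percent of the summed RPKM of each Eph and ephrin family that each member made up, in the WT library (left bar) and the Kai1 KO library (right bar); members below 2% in both are pooled as others. Efnb2 goes from 35.2% to 49.6% of the ephrin-B sum and Ephb4 from 36.4% to 55.0% of the EphB sum, and the value of Epha1 is uncertain because of its overlap with Zyx.

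The ephrin-A ligands were led by Efna4 in both libraries, with an RPKM of 7.65 in WT and 8.19 in Kai1 KO. Its log2 ratio of 0.10 had a counting interval of -0.13 to 0.33 and changed sign under scaling to equal upper quartile (-0.03), to Gapdh (-0.40) and once the trend with transcript length was taken out (-0.09). Efna5, a ligand of several EphA receptors, was likewise close at 2.29 RPKM in WT and 2.39 in Kai1 KO, with a log2 ratio of 0.06 that was -0.02 with the median of all genes set to 0 and -0.42 under scaling to Gapdh. Efna3 had an RPKM of 2.24 in WT and 1.61 in Kai1 KO, a log2 ratio of -0.46 (counting interval -0.87 to -0.09). In the WT library, Efna5 and Efna3 did not differ beyond counting error, with a ratio of 1.02 (0.830 to 1.26).

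Efna2 was the guidance gene with the largest log2 ratio upward among the 17. It lies on chromosome 10 from 79642227 to 79652755, and its RPKM was 0.507 in WT and 1.59 in Kai1 KO, a log2 ratio of 1.48 from about 29 and 82 reads. Under the alternatives its log2 ratio ranged from 0.78, with 1 RPKM added, to 1.63. In the Kai1 KO library it thereby reached the level of Efna3, with a ratio of Efna3 to Efna2 of 1.01 (counting interval 0.744 to 1.38), whereas in WT that ratio was 4.42 (2.94 to 6.81). Efna1, known as a ligand of EphA2, was below the minimum with an RPKM of 0.395 in WT and 0.643 in Kai1 KO, from about 17 and 25 reads, and its counting interval of -0.25 to 1.68 included 0. Efna1, Efna3 and Efna4 are neighbours on chromosome 3, with gaps of 32.8 kb between Efna1 and Efna3 and of 10.4 kb between Efna3 and Efna4, and their log2 ratios of 0.58, -0.46 and 0.10 did not share a sign. Of the exonic bases of Efna3 and Efna4, 14.1% and 10.5% are also exon of a gene on the opposite strand.

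The ephrin-B ligands had their leading pair of members at different proportions in the 2 libraries. Their coding ends are shown because they set the class apart and because near-identical sequence could split reads between the genes. The last 99 coding bases before the stop codon are given below from the GENCODE M1 transcripts on NCBI37, 5′ to 3′ on the coding strand, with the final 3 codons, the PDZ-binding end, in capitals.
Efnb1: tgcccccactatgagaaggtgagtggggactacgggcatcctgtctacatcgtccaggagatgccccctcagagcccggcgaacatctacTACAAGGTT
Efnb2: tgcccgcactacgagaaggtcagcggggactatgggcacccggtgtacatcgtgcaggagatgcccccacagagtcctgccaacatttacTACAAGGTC
Efnb3: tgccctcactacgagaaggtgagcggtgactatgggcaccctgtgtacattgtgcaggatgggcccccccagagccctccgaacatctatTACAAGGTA
Efnb1 and Efnb2 were identical at 84 of these 99 bases, as were Efnb2 and Efnb3, and Efnb1 and Efnb3 at 82. Of the stretches of 36 bases in the longest transcript of each, 0 occurred in a transcript of another protein-coding gene. That search was for exact matches, whereas the authors' alignment allowed mismatches, so whether reads were split between the genes was not tested.

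Efnb1 (chromosome X, 96331469 to 96344330) stood at 15.8 RPKM in WT and 13.6 RPKM in Kai1 KO, a log2 ratio of -0.22 (counting interval -0.33 to -0.10). Efnb2 (chromosome 8, 8617434 to 8661239) stood at 8.62 RPKM in WT and 13.7 RPKM in Kai1 KO, a log2 ratio of 0.67 (0.56 to 0.79), which was 0.17 under scaling to Gapdh. The ratio of Efnb2 to Efnb1 was 0.545 in WT (counting interval 0.503 to 0.591) and 1.01 in Kai1 KO (0.934 to 1.09). Efnb1 was thus the leading ephrin-B transcript in WT, and both were level in Kai1 KO. The change of this ratio was 1.85-fold (1.66 to 2.07) and is free of any scaling of the libraries. Efnb1 is X-linked, and the difference of the libraries in Y-linked genes given above was not tested as a part of its value. Efnb3, on chromosome 11, was low in both, with an RPKM of 0.0896 in WT and 0.348 in Kai1 KO from about 8 and 28 reads. Relative to its receptor gene Ephb4, Efnb2 stood at 1.62 in WT and 2.26 in Kai1 KO, a change of 1.39-fold (1.22 to 1.59).

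Since Efnb2, Ephb4, Unc5b and Robo4 are well known from endothelial cells, markers of that cell type were read beside them. Of 12 endothelial markers, 3 were listed at 0 in WT PVCs and 10 in Kai1 KO PVCs, where 5690 and 6902 of all 20211 symbols were listed at 0. Cdh5 and Pecam1, which define the lineage, had RPKM values of 0.0267 and 0.413 in WT and were listed at 0 in Kai1 KO, and Robo4 was listed at 0 in both. The summed RPKM of the list was 4.80 in WT and 8.41 in Kai1 KO, of which Egfl7 made up 2.28 and 7.39 and Flt1 1.23 and 1.01. Tek, Erg and Kdr had RPKM values of 0.409, 0.302 and 0.122 in WT and were also listed at 0 in Kai1 KO. Of the 12 markers, 7 were above 0 in WT and listed at 0 in Kai1 KO, and 1 was higher in Kai1 KO. Any part of endothelial cells in the values of Efnb2 and Ephb4 was not tested.

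Slit2 and Slit3, secreted Robo ligands, were well expressed and slightly lower in the Kai1 KO library, more so under scaling to Gapdh. Slit2 (chromosome 5, 48374394 to 48697521) stood at 10.9 RPKM in WT and 9.50 RPKM in Kai1 KO, a log2 ratio of -0.20 (counting interval -0.29 to -0.12). Slit3 (chromosome 11, 34934726 to 35522009) stood at 6.09 RPKM in WT and 4.82 RPKM in Kai1 KO, a log2 ratio of -0.33 (-0.49 to -0.19). The ratio of Slit2 to Slit3 was 1.79 in WT and 1.97 in Kai1 KO, a change of 1.10-fold whose counting interval of 0.979 to 1.24 included 1. Slit1, known mainly from the nervous system, was at 0.0469 in WT, about 8 reads, and listed at 0 in Kai1 KO.

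Of the Robo receptors, Robo1 alone reached an RPKM of 1, and it was nearly equal in the libraries. Robo1 (chromosome 16, 72663394 to 73046340) stood at 1.09 RPKM in WT and 1.08 RPKM in Kai1 KO. Its log2 ratio was -0.01, with a counting interval of -0.29 to 0.26, and 0.01 once the trend with transcript length was taken out. Robo3 was at 0.127 in WT and 0.0744 in Kai1 KO, and Robo2, with about 3 reads in WT, was listed at 0 in Kai1 KO. The summed RPKM of the Slits exceeded that of the Robos in both libraries, at 17.1 against 1.23 in WT and 14.3 against 1.16 in Kai1 KO.

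The netrin axis held both the most abundant guidance gene and the one with the largest log2 ratio downward among the 17. Unc5b, a netrin receptor (chromosome 10, 60225358 to 60294329), stood at RPKM values of 31.4 in WT and 38.0 in Kai1 KO, which exceeded 89.3% and 90.2% of all gene symbols. Its log2 ratio was 0.27 (counting interval 0.22 to 0.33) and became -0.23 under scaling to Gapdh. Unc5b made up 98.4% of the summed RPKM of the netrin receptors in WT and 99.3% in Kai1 KO. Unc5a had an RPKM of 0.358 in WT and 0.208 in Kai1 KO, and Unc5c 0.156 and 0.0411. Dcc and Unc5d were below the value of 1 read in both libraries.

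Ntn4 encodes netrin-4, a secreted netrin of basement membranes that binds laminins. It lies on chromosome 10 from 93103426 to 93209952, and its RPKM was 3.96 in WT and 0.542 in Kai1 KO, or 13.7% of WT, from about 402 and 50 reads. Its log2 ratio of -2.66 ranged from -3.07 to -1.68 under the alternatives and so stayed past 2-fold in each that kept the gene. Ntn1, which encodes the canonical ligand of Dcc and the Unc5 receptors, was below the minimum with an RPKM of 0.414 in WT and 0.203 in Kai1 KO, a log2 ratio of -0.77. Relative to Unc5b within a library, Ntn4 stood at 0.126 in WT (counting interval 0.114 to 0.140) and at 0.0143 in Kai1 KO (0.0106 to 0.0189). Both netrin transcripts were thus lower in Kai1 KO, Ntn1 from about 69 and 31 reads, whereas Unc5b stood at a log2 ratio of 0.27. The ratio to Unc5b compares transcript levels only and is no measure of binding.

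The proximal promoters of the 3 genes past 2-fold are shown to let their base composition be compared. Each is the stretch of 250 bases before the RefSeq start (promoter table of build GRCm38.p6), printed 5′ to 3′ on the strand of the gene, with GC boxes (GGGCGG on either strand) in capitals. On NCBI37, to which the sequences were matched, they lie on the plus strand at chr10:93103544-93103793 for Ntn4, at chr6:41555260-41555509 for Ephb6 and at chr10:79641977-79642226 for Efna2.
Ntn4: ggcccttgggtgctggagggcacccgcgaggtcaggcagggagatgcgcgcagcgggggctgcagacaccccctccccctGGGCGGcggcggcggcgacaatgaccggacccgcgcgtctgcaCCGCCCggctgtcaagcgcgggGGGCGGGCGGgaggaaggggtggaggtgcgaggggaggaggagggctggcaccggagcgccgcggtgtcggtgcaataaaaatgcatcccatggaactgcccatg
Ephb6: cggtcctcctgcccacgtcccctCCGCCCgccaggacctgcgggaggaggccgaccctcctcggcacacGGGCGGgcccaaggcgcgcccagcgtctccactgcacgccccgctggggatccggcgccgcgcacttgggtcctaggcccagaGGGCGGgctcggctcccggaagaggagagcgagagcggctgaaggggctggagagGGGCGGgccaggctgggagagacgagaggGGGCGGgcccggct
Efna2: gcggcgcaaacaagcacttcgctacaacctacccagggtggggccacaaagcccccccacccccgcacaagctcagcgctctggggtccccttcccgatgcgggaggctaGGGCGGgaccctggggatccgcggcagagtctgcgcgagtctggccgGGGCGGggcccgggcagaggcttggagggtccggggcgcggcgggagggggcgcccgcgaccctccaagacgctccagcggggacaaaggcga
The Ntn4 window lies between the first exons of 2 annotated transcripts, and the last 29 bases of the Ephb6 window lie in an annotated first exon. The windows held 4 GC boxes for Ntn4 (2 of which overlap), 5 for Ephb6 and 2 for Efna2, and 26, 27 and 25 CG dinucleotides. A TATA box (TATAAA) was found in 0 of the 3 windows on either strand, and so was a CCAAT box, searched by the letters of its name, against 12.4% and 33.8% of all RefSeq promoters. The E-box of the letters CACGTG and the AP-1 site of the letters TGANTCA were likewise found in 0 of the 3, against 6.02% and 6.75%. The cyclic AMP response element, spelt TGACGTCA, and the TEAD site, spelt GGAATG, were also found in 0 of the 3, against 1.55% and 12.6%. Among the 7644 genes above the minimum of 1 RPKM with a matched promoter, a TATA box was found in 5.95% and a CCAAT box in 36.6%. The E-box was found in 8.69% of them, the AP-1 site in 4.12%, the cyclic AMP element in 2.75% and the TEAD site in 10.2%. The result says only that these letters are absent from the windows, and 3 windows are too few to show a depletion.

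RefSeq promoters were matched for 31 of the 36 guidance genes. A GC box was found in 22 of the 31, or 71.0%, against 45.3% of 15043 genes in the tables, 62.2% of the 7644 among them above the minimum of 1 RPKM and 32.7% of all 32851 promoters. The median number of CG dinucleotides was 17 in the guidance genes, 11 in the genes in the tables, 17 in those above the minimum and 6 in all promoters. The guidance genes matched include genes below that minimum.

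Signalling partners of the 3 pathways were taken from a list compiled from general knowledge, but with earlier results of these data known. It held 55 genes in all, of which 44 averaged at least 1 RPKM. More than 2-fold lower in the Kai1 KO library were 9 of the 44 and more than 2-fold higher were 2, beside the 7.81% and 7.98% of all genes given above. Of the 9, Nck2, Srgap1, Ntng2 and Adora2b passed the minimum in WT only. With at least 1 RPKM required in each library, all others of the 44 were kept. Of the partners kept, 5 were more than 2-fold lower and 2 higher, against 5.50% and 7.03% of all genes. The median log2 ratio of the 44 was -0.40 and that of all genes 0.08. Ptk2, Fyn, Dag1 and other partners serve many receptors, and the list is no measure of guidance signalling.

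**Figure D5:**
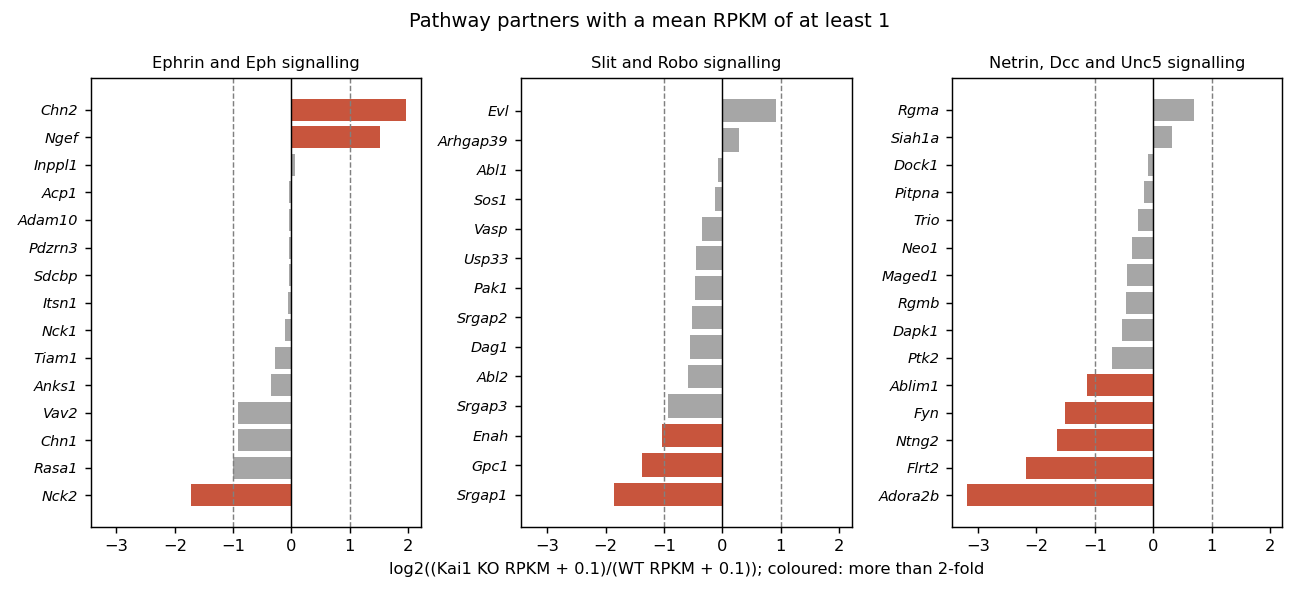
Log2 ratio of Kai1 KO to WT (0.1 added to each RPKM) of the 44 partners above the minimum, in 3 panels by pathway and ordered by ratio; dashed lines mark 2-fold and coloured bars lie past it. Chn2 and Ngef are the 2 bars past the line on the right, both among the partners of Eph receptors, and 9 bars pass the line on the left.

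Among the 15 expressed partners of ephrins and Eph receptors, both higher genes act on small GTPases. Chn2, which encodes a Rac GTPase-activating protein, had an RPKM of 1.16 in WT and 4.78 in Kai1 KO, a log2 ratio of 1.96, and Ngef, which encodes the exchange factor ephexin-1, 1.85 and 5.49, a log2 ratio of 1.52. The adaptor gene Nck2 had an RPKM of 2.14 in WT and 0.581 in Kai1 KO, a log2 ratio of -1.72, whereas its paralogue Nck1 had 4.05 and 3.73. The ephrin sheddase gene Adam10 was close in both libraries at 7.40 and 7.19.

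Of the 14 expressed partners of Slits and Robos, 3 were more than 2-fold lower and 0 higher, beside 7.81% and 7.98% of all genes. Srgap1, which encodes a Slit-Robo GTPase-activating protein, stood at 0.622 RPKM in Kai1 KO, or 24.9% of WT, a log2 ratio of -1.85. Gpc1, whose product carries the heparan sulphate that Slits bind, had 20.4 and 7.77 (-1.38), and Enah, an actin regulator, 8.16 and 3.93 (-1.04). The other genes of the Enah family differed in sign: Vasp, the highest of this list by mean, stood at 48.9 in WT and 38.6 in Kai1 KO (-0.34), and Evl at 27.1 and 51.2 (0.91), above Vasp in Kai1 KO.

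Of the 15 expressed genes listed for netrins and their receptors, not all of which need bind either, 5 were more than 2-fold lower and 0 higher. Among all genes, 7.81% were lower and 7.98% higher. Flrt2, which encodes a membrane ligand of Unc5 receptors, had an RPKM of 23.1 in WT and 5.03 in Kai1 KO, a log2 ratio of -2.18. Adora2b, an adenosine receptor gene, had 7.44 and 0.729 (-3.19), and the kinase gene Fyn 11.9 and 4.12 (-1.51). Ntng2, which encodes netrin-G2, had 1.62 and 0.446 (-1.65), and the actin-binding gene Ablim1 6.64 and 2.98 (-1.13). Neo1, the Dcc-related receptor neogenin, was expressed at 11.9 in WT and 9.28 in Kai1 KO, a log2 ratio of -0.36, while Dcc itself was not detectable at this depth. Pitpna and Maged1 were the most abundant partners of all, at 98.2 and 94.2 in WT and 88.0 and 69.4 in Kai1 KO.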

How the data were processed

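RNA from 1 WT and 1 Kai1 KO culture of aortic PVCs was sequenced. The authors aligned the reads to mm9 (NCBI37) with TopHat2 2.0.9 and Bowtie, and deposited 1 RPKM value per RefSeq gene and library. Cufflinks is named in the submitters' processing notes, and the paper names Cuffdiff for its test of differential expression. The labels describe end repair, A-tailing and adaptor ligation; read length, strand setting and any scaling between libraries are not given in the sources used here. Labels and methods give different serum contents of the medium.

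Each table held 20462 rows. The 38 rows lacking a symbol were dropped and symbols on several rows (153) averaged, although each of the 36 guidance genes stood on 1 row. The log2 ratio used a pseudocount of 0.1 RPKM, and counts of genes past 2-fold a mean RPKM of at least 1. Reads per gene were estimated by fitting low values to whole reads, with a fragment length of 200 bases and single-transcript genes over 800 bases; 80.5% of 486 values in WT and 78.0% of 305 in Kai1 KO lay within 0.15 of a whole read. They used the longest GENCODE M1 transcript and are approximate. Intervals are exact (Clopper-Pearson for ratios, Poisson for levels) at 95%, except that for a change of a ratio a normal approximation was used, and cover counting error only. Transcripts were compared in stretches of 36 bases. Scripts were tested on simulated reads and used matplotlib 3.10.9, scipy 1.17.1, pandas 2.3.3, statsmodels 0.14.6 and numpy 2.4.6 under Python 3.11.15.

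Named were all guidance genes, partners past 2-fold or among the most abundant, and marker genes that define a cell type; Nck1, Adam10, Neo1 and Evl were added after their values were seen. Members and lists were chosen with earlier results of these data known. Ntn3 of the partner list was not among the symbols. Alternatives were other pseudocounts, scalings and filters, the highest of repeated rows, and removal of the trend with transcript length by lowess.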

Additional observations from a re-analysis of the deposited data

How the results depend on the processing

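Of 119 recomputed log2 ratios of the 17 guidance genes, 96 moved by less than the distance from the middle of their counting interval to its end. The other 23 moved further. Of the 96, 17 take the highest of repeated rows and are identical by construction, since each guidance gene stands on 1 row. Of the 119, 10 changed sign, all of genes within 2-fold. The 2-fold line was crossed by 3 (Efna2 and Ephb6 with a pseudocount of 1 RPKM, Ephb3 at -1.13 under scaling to Gapdh). With a pseudocount of 1 RPKM, 1 guidance gene was more than 2-fold lower and 0 higher, 5 partners were lower, and 572 of all genes were lower and 550 higher. Scaling to Gapdh, itself at a log2 ratio of 0.50, moved the median of all genes from 0.08 to -0.41 and that of the guidance genes to -0.47, with 17 partners lower, and 1856 of all genes lower and 278 higher. Without a filter, 4 guidance genes were lower and 2 higher, and 1878 and 1205 of all genes. With a minimum mean of 5 RPKM, 0 guidance genes were lower and 0 higher, 4 partners lower and 0 higher, and 350 and 511 of all genes. With a minimum of 1 RPKM in each library, a filter chosen after seeing the data, 0 guidance genes were lower and 0 higher, 5 partners lower and 519 of all genes lower. The filters change the genes counted by construction. No paired analysis was possible because a single library of each genotype was sequenced and the labels give no replicate numbers. Depth limits genes such as Ephb2, with about 7 reads in the Kai1 KO library.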
